A study of Caenorhabditis elegans with 5 samples.

Results

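The RNA-dependent RNA polymerases (RdRPs) of *C. elegans*, their cofactors, the Mutator proteins and Dicer are described here as 10 genes of a deposited mRNA table that held 20911 gene models. The genes were taken by sequence name, with no cutoff on a measured value, but with earlier results of these data known. They were *ego-1* (F26A3.3), *rrf-1* (F26A3.8), *rrf-3* (F10B5.7), *drh-3* (D2005.5), *ekl-1* (F22D6.6), *mut-2* (K04F10.6), *mut-7* (ZK1098.8), *mut-15* (T01C3.8), *mut-16* (B0379.3) and *dcr-1* (K12H4.8). All 10 were found, each with 1 model, and all 10 passed the minimum of 5 RPKM used for counts. RPKM is the number of reads per kilobase of gene model, scaled to the sequencing depth of the library, so that levels of different genes can be set side by side.

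Poly(A)-selected mRNA of whole young adults raised at 19 °C on OP50 bacteria was sequenced in 5 libraries, 1 per genotype. The mutants were *set-32*(ok1457), a double mutant of *met-2*(n4256) with *set-25*(ok5021), a triple mutant that joined both of these alleles to *set-32*(ok1457), and *hrde-1*(tm1200). The strain they were compared with was WT (N2). The products of the first 3 genes are methyltransferases required for methylation of histone H3 on lysine 9, and HRDE-1 is the Argonaute protein of germline nuclear RNAi. The study asked whether this methylation is needed for silencing by nuclear RNAi. Each library came from a pool of many animals, which hold soma and germ line together.

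RdRPs copy a targeted mRNA into short antisense RNAs, the secondary siRNAs, which Argonaute proteins then use to find matching transcripts. EGO-1 and RRF-1 make most of these siRNAs in the germ line, with the helicase DRH-3 and the Tudor-domain protein EKL-1 as partners, and RRF-3 works with Dicer in the ERI complex to make the primary siRNAs of another class. The Mutator proteins gather in perinuclear foci of germ cells, where MUT-16 is the scaffold, and siRNAs bound by HRDE-1 depend on them. The comparisons give the mRNA levels of this machinery where HRDE-1 or the methyltransferases were lost.

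With 1 library per genotype, no difference had a replicate check and no p-value was computed. A difference is instead given as a fold, counted where it was at least 5/4-fold (0.32 on the log2 scale) or 2-fold, and with a 95% exact counting interval, from read numbers estimated out of the table. The interval covers counting error only, since PCR reads without molecular identifiers are not independent molecules. The 5 libraries held an estimated 1.83 M to 2.94 M reads, and the 10 genes held between 85 reads (*mut-15*) and 590 reads (*dcr-1*) each in a library. The genes carrying the mutations were checked first. The level of *met-2* was 12.6 RPKM in the double mutant and 9.45 RPKM in the triple mutant, against 47.3 RPKM in WT. That of *set-25* was 10.3 RPKM in the double mutant and 8.64 RPKM in the triple mutant, against 17.5 RPKM in WT. The level of *set-32* was 8.15 RPKM in *set-32* and 5.65 RPKM in the triple mutant, against 12.5 RPKM in WT, and that of *hrde-1* was 159.7 RPKM in *hrde-1*, against 227.5 RPKM in WT. Each targeted gene was lower than WT in the libraries that carry its mutation, but for *set-32* in the *set-32* library, at 0.651 of WT, the counting interval (0.386 to 1.04) included 1. The other ratios had intervals below 1, and whether the remaining reads lie outside the deleted parts was not tested. In the *set-32* library, which does not carry their mutations, *met-2* was at 0.726 (0.627 to 0.843) and *hrde-1* at 0.782 (0.726 to 0.842) of WT, while *set-25* was at 0.99 (0.726 to 1.34). In its own library *hrde-1* was at 0.702 (0.647 to 0.761), so a lower level of this gene is not particular to that library.

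In the WBcel235 annotation, 6 of the 10 genes lie on chromosome I. The genes *ego-1* (chromosome I, 7650341 to 7656338, minus strand, 15 exons) and *rrf-1* (7643431 to 7649777, minus strand, 20 exons) are neighbours, 563 bases apart, and their proteins are close relatives. Also on chromosome I are *mut-2* (6356614 to 6358411, minus strand, 8 exons), *ekl-1* (7095486 to 7098400, plus strand, 11 exons), *drh-3* (7820831 to 7826378, plus strand, 15 exons) and *mut-16* (10080159 to 10085765, plus strand, 14 exons). The other genes are *rrf-3* on chromosome II (8162465 to 8168651, plus strand, 15 exons), *mut-7* (9539031 to 9542380, minus strand, 8 exons) and *dcr-1* (8071967 to 8080281, minus strand, 27 exons) on chromosome III, and *mut-15* on chromosome V (15002543 to 15005067, plus strand, 11 exons). Exons of 2 of them overlap a gene on the other strand, *rrf-3* with T05C12.11 over 37 bases and *mut-2* with *bli-4* over 67 bases. The counting strand is not given in the sources used here, so reads of these short stretches cannot be assigned to 1 gene. A read that aligned at several places was divided evenly among them, and how many reads *ego-1*, *rrf-1* and their relative *rrf-2* share was not tested.

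The deposited table also places gene models in germline expression classes (sperm, oocyte or intrinsic, the last for germline genes tied to neither gamete) and marks the targets of germline nuclear RNAi. Of the 10 genes, 5 are in the intrinsic class, which holds 4.31% of all models: *ego-1*, *rrf-3*, *drh-3*, *ekl-1* and *dcr-1*. None of the 10 is in the sperm class (797 of 20911 models) or the oocyte class (694 of 20911). None is on either list of nuclear RNAi targets defined from *hrde-1* mutants. These hold 142 models (heterochromatin targets) and 121 models (transcriptionally silenced targets) of the 20911. With shares this small, such absences are not particular to the 10 genes.

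All 10 genes were expressed at intermediate levels in every library, between 15.6 RPKM (*rrf-3* in *set-32*) and 64.2 RPKM (*mut-2* in WT). In WT they lay between the 55.7th percentile (*rrf-3*) and the 82.6th percentile (*mut-2*) of the models with at least 1 RPKM. The order of levels in WT was *mut-2*, *ekl-1*, *mut-7*, *drh-3*, *dcr-1*, *mut-16*, *ego-1*, *mut-15*, *rrf-1* and *rrf-3*, with the 3 RdRPs and *mut-15* at the low end. Of the 9 neighbouring pairs in this order, 2 were apart beyond counting error: *ekl-1* was 1.23-fold (1.04 to 1.46) above *mut-7*, and *mut-16* was 1.5-fold (1.28 to 1.75) above *ego-1*. The other 7 pairs were not separable at this depth. In each mutant 1 or 2 neighbouring pairs of its own order were apart.

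**Figure D1:**
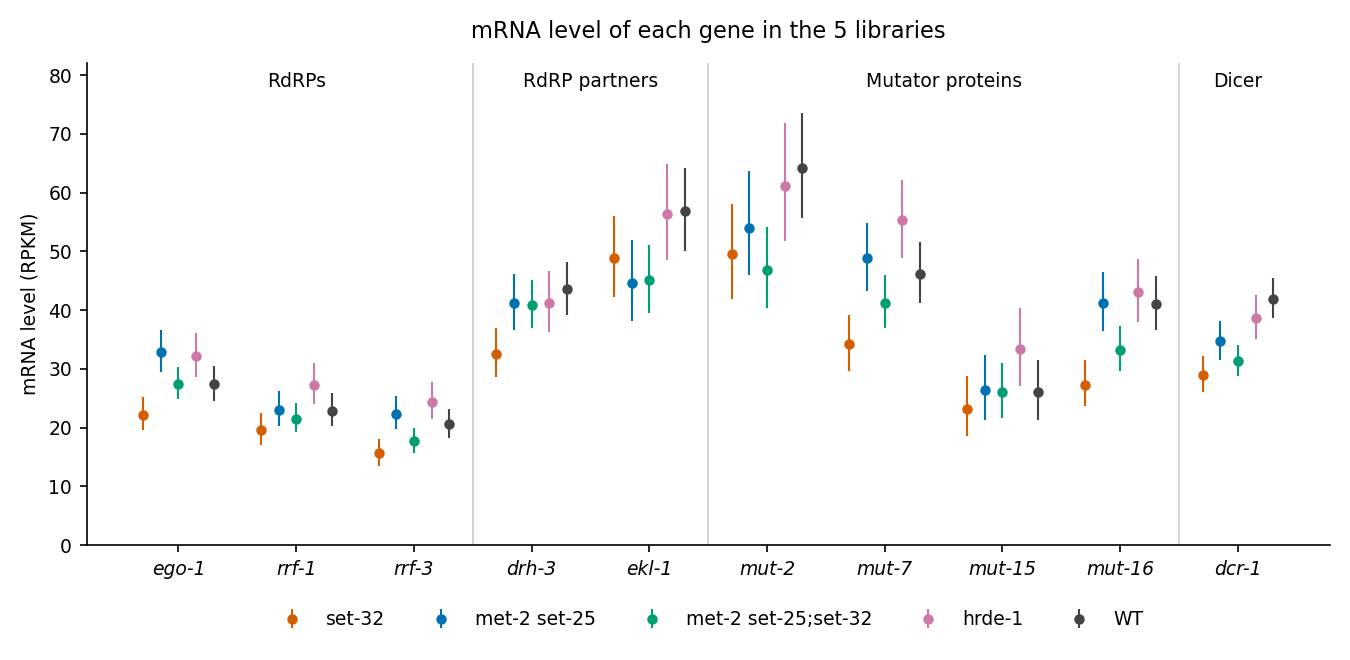
mRNA level in RPKM (vertical axis) of the 10 genes (horizontal axis, grouped by role) in the libraries of *set-32*, the double mutant (*met-2 set-25*), the triple mutant (*met-2 set-25;set-32*), *hrde-1* and WT. Points are the deposited values of 1 library each and bars are 95% exact Poisson counting intervals; the *set-32* point is the lowest of the 5 for 8 genes.

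Among the RdRPs, *ego-1*, the germline enzyme needed for fertility, had 22.2 RPKM in *set-32*, 32.9 RPKM in the double mutant, 27.5 RPKM in the triple mutant, 32.2 RPKM in *hrde-1* and 27.4 RPKM in WT. Its level in the triple mutant was close to that of WT, with *set-32* below and the double mutant above. For *rrf-1*, which amplifies the response to introduced double-stranded RNA and partly overlaps *ego-1* in the germ line, the levels were 19.7 RPKM in *set-32*, 23.1 RPKM in the double mutant, 21.5 RPKM in the triple mutant, 27.3 RPKM in *hrde-1* and 22.9 RPKM in WT. Here *hrde-1* was the highest library and the other 4 lay between 19.7 and 23.1 RPKM. The counting interval in *hrde-1* (24 to 31) overlapped those in the double mutant (20.2 to 26.2) and WT (20.2 to 25.8). For *rrf-3*, the RdRP of the ERI complex, the levels were 15.6 RPKM in *set-32*, 22.4 RPKM in the double mutant, 17.8 RPKM in the triple mutant, 24.4 RPKM in *hrde-1* and 20.6 RPKM in WT. The 2 libraries that lack SET-32 were the lowest and *hrde-1* the highest. How many of all models have these 2 libraries lowest was not counted.

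Among the RdRP partners, *drh-3*, the Dicer-related helicase, had 32.5 RPKM in *set-32*, 41.3 RPKM in the double mutant, 40.9 RPKM in the triple mutant, 41.2 RPKM in *hrde-1* and 43.5 RPKM in WT. One library, *set-32*, was below the other 4. Its counting interval (28.6 to 36.9) still overlapped those of the double mutant (36.6 to 46.2) and *hrde-1* (36.3 to 46.6). The Tudor-domain gene *ekl-1* had 48.9 RPKM in *set-32*, 44.7 RPKM in the double mutant, 45.1 RPKM in the triple mutant, 56.3 RPKM in *hrde-1* and 56.8 RPKM in WT. The order thus differed from that of *drh-3*, with the double and triple mutants lowest and *hrde-1* level with WT.

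Among the Mutator genes, *mut-2*, whose nucleotidyltransferase adds tails to the RNAs that serve as RdRP templates, had 49.6 RPKM in *set-32*, 54.03 RPKM in the double mutant, 46.8 RPKM in the triple mutant, 61.1 RPKM in *hrde-1* and 64.2 RPKM in WT. All 3 methyltransferase mutants were below *hrde-1* and WT. The exonuclease-domain gene *mut-7* had 34.2 RPKM in *set-32*, 48.8 RPKM in the double mutant, 41.1 RPKM in the triple mutant, 55.3 RPKM in *hrde-1* and 46.1 RPKM in WT. The gene *mut-15*, which encodes a component of the Mutator foci, had 23.2 RPKM in *set-32*, 26.5 RPKM in the double mutant, 26.01 RPKM in the triple mutant, 33.3 RPKM in *hrde-1* and 26.1 RPKM in WT. Both were highest in *hrde-1* and lowest in *set-32*. The scaffold gene *mut-16* had 27.3 RPKM in *set-32*, 41.1 RPKM in the double mutant, 33.3 RPKM in the triple mutant, 43.1 RPKM in *hrde-1* and 41.0 RPKM in WT. Again the 2 libraries without SET-32 were the lowest. Dicer, the nuclease that cuts long double-stranded RNA into primary siRNAs and matures microRNAs, was encoded by *dcr-1* at 29.0 RPKM in *set-32*, 34.7 RPKM in the double mutant, 31.3 RPKM in the triple mutant, 38.7 RPKM in *hrde-1* and 41.9 RPKM in WT. It was highest in WT, and the same 2 libraries were the lowest. The same 2 libraries were also the lowest for *rrf-1*, *drh-3*, *mut-2*, *mut-7* and *mut-15*. For *mut-15* the triple mutant (26.01 RPKM) lay next to WT (26.05 RPKM). The share of all models with this order was not counted. Median log2 ratios to WT were below 0 in both libraries as well for whole germline classes. They were -0.23 in *set-32* and -0.19 in the triple mutant for the intrinsic class, and -0.28 and -0.23 for the oocyte class.

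Over the 5 libraries each gene varied little, the highest value being between 1.27 times (*ekl-1*) and 1.62 times (*mut-7*) the lowest. The lowest library was *set-32* for 8 of the 10 genes, against 26.4% of the 10745 models with at least 5 RPKM in some library. It was the double mutant for 1 (*ekl-1*, background 12%) and the triple mutant for 1 (*mut-2*, background 19%). The highest library was *hrde-1* for 5 genes (background 24.4%), WT for 4 (background 18.3%) and the double mutant for 1 (*ego-1*, background 22.1%). Summed over the 10 genes, the level was 302.1 RPKM in *set-32*, 369.5 RPKM in the double mutant, 331.3 RPKM in the triple mutant, 412.9 RPKM in *hrde-1* and 390.5 RPKM in WT. The sums thus ran from 0.774 of WT in *set-32* to 1.06 times WT in *hrde-1*. Because whole animals were sequenced, fewer cells of a type and less RNA per cell cannot be told apart.

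The first comparison asked how the 10 genes stood when SET-32 alone was lost. All 10 were lower in *set-32* than in WT (background 54.3% of 10092 models tested), by small amounts. Dicer (*dcr-1*) was at 0.693 of WT (0.607 to 0.79) and the Mutator scaffold gene *mut-16* at 0.666 (0.555 to 0.799), the lowest ratios. Also at least 5/4-fold lower were *mut-7* at 0.74 (0.617 to 0.883), *drh-3* at 0.747 (0.633 to 0.882), *rrf-3* at 0.758 (0.627 to 0.92) and *mut-2* at 0.772 (0.62 to 0.956). These 6 of 10 stood against 21.6% of all models tested, and no gene was at least 5/4-fold higher (background 21.8%). For these 6 and for *ego-1*, at 0.809 (0.684 to 0.959), the counting interval lay below 1, which makes 7 of 10 against a background of 16.4% lower and 11% higher. The intervals of *rrf-1* at 0.86 (0.715 to 1.03), *ekl-1* at 0.86 (0.71 to 1.04) and *mut-15* at 0.89 (0.664 to 1.2) included 1. No gene was 2-fold apart (background 6.33%).

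On the scale of log2((RPKM + 1)/(RPKM + 1)), the median of the 10 genes in *set-32* over WT was -0.37, with the 2nd and 9th of the 10 ordered values at -0.51 and -0.21. The median was -0.04 over all models tested and -0.11 over the 3637 models with a mean of 20 to 60 RPKM, a range of level like that of the 10 genes. The other 737 models of the intrinsic class had a median of -0.23, with 78.3% below WT and 35% at least 5/4-fold lower, and the 678 models of the oocyte class had a median of -0.28. The 242 models of the sperm class had a median of 0.77. After rescaling to the median of the intrinsic class, the median of the 10 genes was -0.15, 7 of 10 were below WT and 1 of 10 (*mut-16*) was at least 5/4-fold lower.

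The makeup of the *set-32* library moved with this result. Sperm-class models took 0.649% of the reads in *set-32*, against 0.415% in WT, and the 6 vitellogenin genes (8 models), which encode yolk proteins made in the intestine, took 7.77% in *set-32*, against 5.65% in WT. Oocyte-class models took 6.37% in *set-32*, against 7.78% in WT, and intrinsic-class models 6.45% in *set-32*, against 7.61% in WT. Among marker lists, the summed level was 2.43 times WT for 5 sperm genes (*spe-9* and *spe-38* below 1 RPKM in every library), 1.4 times WT for 5 intestinal genes, 0.829 of WT for 5 oocyte genes and 0.897 of WT for 7 germline genes. The intestinal sum was mostly that of the vitellogenin genes *vit-2*, *vit-5* and *vit-6*. Of the other intestinal markers, *ges-1* was at 1.37 (0.963 to 1.97) and *elt-2* at 0.765 (0.448 to 1.31) of WT. The part of these groups in the lower values was not tested.

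**Figure D2:**
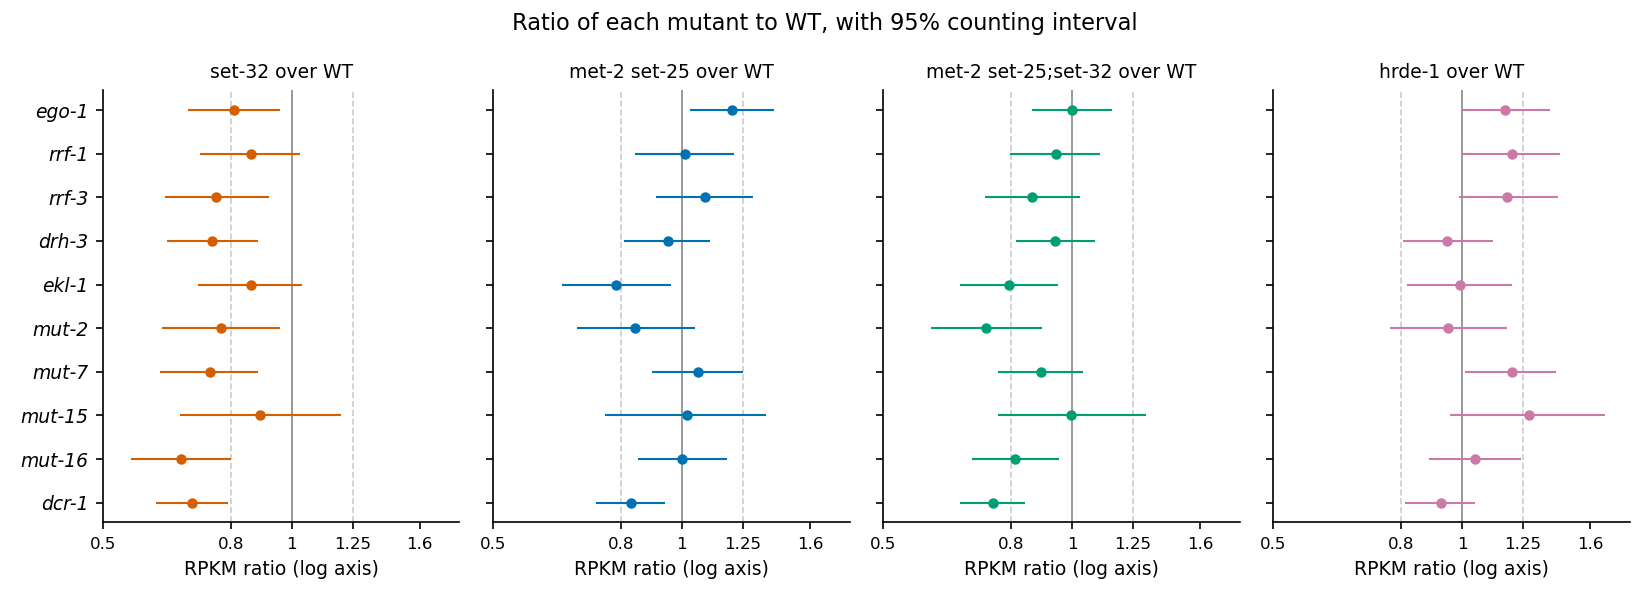
Ratio of each mutant to WT for the 10 genes (1 panel per mutant, log axis), with 95% exact counting intervals as bars. The solid line is a ratio of 1 and the dashed lines are 5/4-fold in either direction; intervals lie below 1 for 7 genes in *set-32*, for 2 in the double mutant, for 4 in the triple mutant and for 0 in *hrde-1*.

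The second comparison concerned the loss of MET-2 and SET-25, the other methyltransferases. The 10 genes stood on both sides of WT in the double mutant, and 1 of 10 was at least 5/4-fold apart. That gene was *ekl-1*, at 0.786 of WT (0.645 to 0.96), against a background of 12.4% of 10108 models lower and 20.9% higher. The RdRP gene *ego-1* was at 1.2 times WT (1.03 to 1.4) and *dcr-1* at 0.83 of WT (0.729 to 0.941). Intervals thus lay below 1 for 2 genes (background 7.08%) and above 1 for 1 gene (background 9.23%). For the other genes the ratio ran between 0.841 (0.681 to 1.05) for *mut-2* and 1.09 (0.911 to 1.3) for *rrf-3*, and *mut-16* was at 1 (0.852 to 1.18). No gene was 2-fold apart (background 4.91%).

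The median log2 ratio of the 10 genes in the double mutant over WT was 0.01 (2nd to 9th value, -0.26 to 0.11), beside 0.05 over all models tested and -0.01 over the intrinsic class. Of the 10, 4 were below WT, against 43.2% of all models. The single call rested on the settings: *ekl-1* was not 5/4-fold lower with a pseudocount of 5 RPKM, nor when set against the median of the other 4 libraries. Within the RdRPs, *ego-1* was 1.43 times *rrf-1* (1.2 to 1.69) in the double mutant, against 1.2 times (1.02 to 1.41) in WT. The intervals of these 2 ratios overlap, and their difference was not tested.

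The third comparison took the triple mutant, which lacks all 3 methyltransferases, against WT. Dicer (*dcr-1*) was at 0.748 of WT (0.664 to 0.842), the tail-adding enzyme gene *mut-2* at 0.729 (0.597 to 0.896) and *ekl-1* at 0.793 (0.662 to 0.949), and these 3 of 10 were at least 5/4-fold lower (background 18.7% of 10112 models). The scaffold gene *mut-16*, at 0.812 (0.692 to 0.952), brought the intervals below 1 to 4 of 10 (background 14.7%). No gene was at least 5/4-fold higher (background 20%), no interval lay above 1 (background 11%) and none was 2-fold apart (background 5.46%). The RdRP ratios were 1 (0.864 to 1.16) for *ego-1*, 0.942 (0.796 to 1.11) for *rrf-1* and 0.863 (0.727 to 1.03) for *rrf-3*.

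The median log2 ratio in the triple mutant over WT was -0.18 (2nd to 9th value, -0.41 to 0.00), and 9 of 10 were below WT (background 53.6%). This count includes *mut-15*, at 26.01 RPKM against 26.05 in WT, and the 1 gene above was *ego-1*, at 27.46 against 27.42. With log2 ratios rounded to 2 decimals, 8 were below 0 and 0 above. The median was -0.03 over all models tested, -0.19 over the 741 other models of the intrinsic class and -0.23 over the oocyte class. Rescaled to the intrinsic class, the median of the 10 genes was 0.01, with 5 below WT and 5 above, and 0 of 10 were 5/4-fold lower. Set against the median of the other 4 libraries, 0 of 10 were 5/4-fold lower as well. Vitellogenin genes took 6.75% of the reads in the triple mutant, against 5.65% in WT, and the summed level of the 4 hypodermal markers (3 matched, none above 11.9 RPKM in any library) was 2.01 times WT. Oocyte-class models took 6.61% of the reads in the triple mutant, against 7.78% in WT, and intrinsic-class models 6.71%, against 7.61% in WT. The summed level was 0.861 of WT for the 5 oocyte markers, 0.969 for the 7 germline markers and 1.21 times WT for the 3 body-wall muscle markers. The part of these groups in the result was not tested.

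The fourth comparison asked how the siRNA-making genes stood without HRDE-1. The 10 genes were close to WT: *mut-15*, at 1.28 times WT (0.958 to 1.69), was the 1 gene at least 5/4-fold higher (background 18.3% of 9941 models), with an interval that included 1. It lost the call with a pseudocount of 5 RPKM, as 0 of 10 then passed. For *mut-7*, at 1.2 (1.01 to 1.41), and *rrf-1*, at 1.2 (1 to 1.43), the intervals lay above 1, the second by a margin that rounding hides (2 of 10, background 9.68%). No gene was at least 5/4-fold lower (background 20%), no interval lay below 1 (background 9.91%) and none was 2-fold apart (background 6.23%). The other RdRPs were at 1.17 (0.998 to 1.38) for *ego-1* and 1.18 (0.99 to 1.42) for *rrf-3*. Dicer was at 0.925 (0.812 to 1.05), *drh-3* at 0.947 (0.804 to 1.12), *ekl-1* at 0.991 (0.816 to 1.2), *mut-2* at 0.951 (0.768 to 1.18) and *mut-16* at 1.05 (0.886 to 1.24).

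The median log2 ratio in *hrde-1* over WT was 0.15 (2nd to 9th value, -0.08 to 0.26), beside 0.01 over all models tested and 0.04 over the intrinsic class, and 4 of 10 were below WT (background 48.3%). By role, the summed level of the 3 RdRPs was 83.9 RPKM in *hrde-1*, against 70.9 in WT, a ratio of 1.18. The 4 Mutator genes summed to 192.7 RPKM in *hrde-1*, against 177.4 in WT, a ratio of 1.09. The partners *drh-3* and *ekl-1* summed to 97.5 RPKM in *hrde-1*, against 100.3 in WT, a ratio of 0.972. In *set-32* all roles were lower than WT, with ratios of 0.811 for the RdRPs, 0.811 for the partners, 0.757 for the Mutator genes and 0.693 for Dicer. The sperm class had a median log2 ratio of -0.41 in *hrde-1* over WT, and the 5 oocyte markers summed to 1.21 times WT. The whole oocyte class (682 models) did not share this rise, with a median log2 ratio of 0.05, and the 7 germline markers summed to 0.941 of WT. Vitellogenin genes took 6.92% of the reads in *hrde-1*, against 5.65% in WT, and the 5 intestinal markers summed to 1.2 times WT. The intestinal sum was mostly that of the vitellogenin genes *vit-2*, *vit-5* and *vit-6*. The other intestinal markers did not share the rise, with *ges-1* at 1.01 (0.66 to 1.5) and *elt-2* at 0.718 (0.398 to 1.28) of WT. The part of these groups in the values was not tested.

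**Figure D3:**
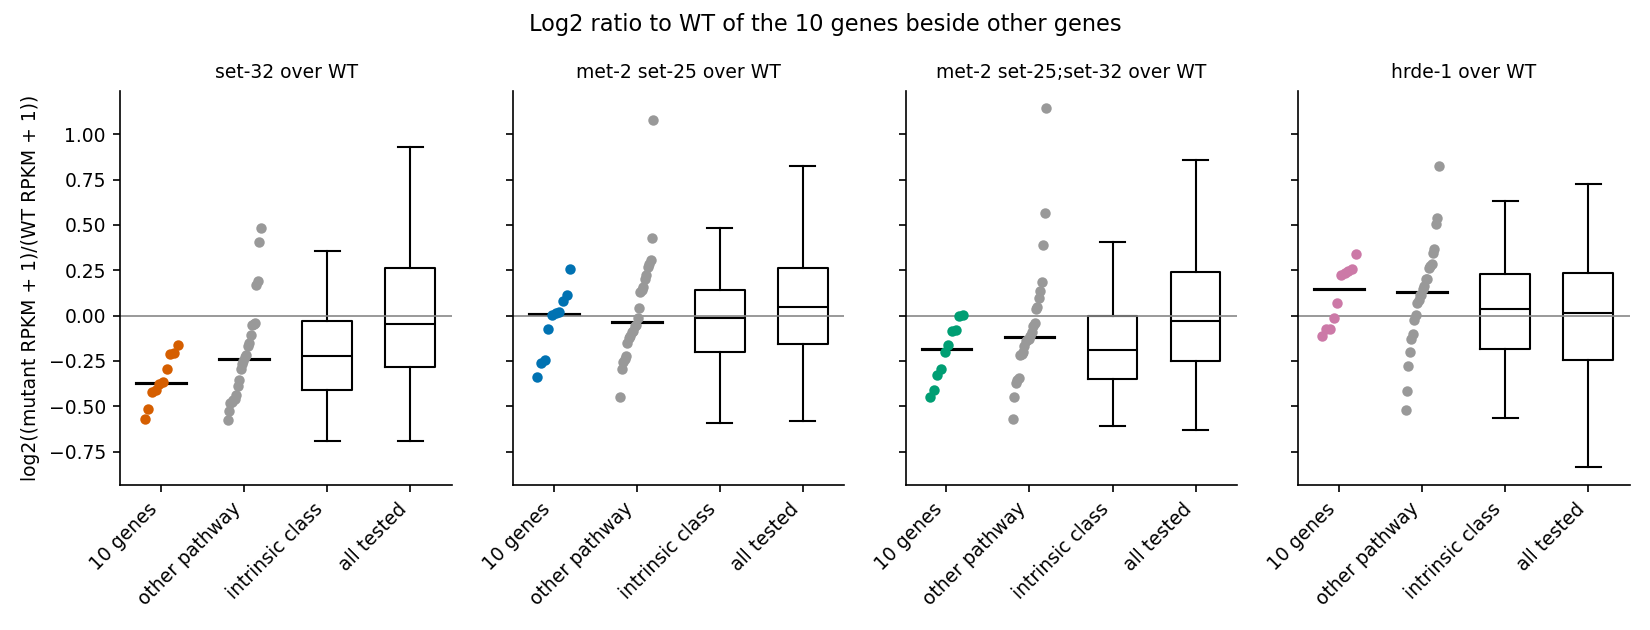
Log2((mutant RPKM + 1)/(WT RPKM + 1)) of the 10 genes and of the other pathway genes with at least 5 RPKM in some library (points, with a line at the median), beside the intrinsic germline class and all models tested (boxes from the lower to the upper quartile with the median as a line, whiskers from the 5th to the 95th percentile). The 10 genes have medians of -0.37 for *set-32*, 0.01 for the double mutant, -0.18 for the triple mutant and 0.15 for *hrde-1*, beside -0.23, -0.01, -0.19 and 0.04 for the intrinsic class.

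To see what the further loss of SET-32 went with, the triple mutant was set against the double mutant. On the log2 scale with a pseudocount of 1 RPKM no gene was 5/4-fold apart (background 20.5% of 10224 models lower and 13.7% higher), though *rrf-3* lay next to the threshold and passed it as a plain ratio. For 4 genes the interval lay below 1 (background 13% lower and 6.86% higher): *rrf-3* at 0.795 of the double mutant (0.667 to 0.947), *mut-16* at 0.809 (0.685 to 0.954), *ego-1* at 0.834 (0.72 to 0.967) and *mut-7* at 0.843 (0.718 to 0.994). The other 6 ratios ran between 0.867 (0.694 to 1.08) for *mut-2* and 1.01 (0.824 to 1.23) for *ekl-1*. The median log2 ratio was -0.17, with 9 of 10 below 0 (background 59.4%), beside -0.08 over all models tested and -0.16 over the intrinsic class. Rescaled to the intrinsic class, 5 genes were below 0 and 5 above. With a pseudocount of 0.1 RPKM, 1 of 10 (*rrf-3*) was 5/4-fold lower. No gene was 2-fold apart (background 3.9%).

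Set against *set-32*, the triple mutant was higher in 8 of 10 genes, with 2 lower (background 48.8% of 10225 models lower). The helicase gene *drh-3*, at 1.26 times *set-32* (1.07 to 1.48), was the 1 gene at least 5/4-fold higher (background 16.6%), and none was as far lower (background 16.4%). Rescaled to all models or to the intrinsic class, 0 of 10 passed. Intervals lay above 1 for *drh-3*, *ego-1* at 1.24 (1.05 to 1.46), *mut-16* at 1.22 (1.01 to 1.47) and *mut-7* at 1.2 (1.01 to 1.44), which makes 4 of 10 (background 9.88%), and for no gene below 1 (background 7.99%). The median log2 ratio was 0.17, beside 0.01 over all models tested and 0.03 over the intrinsic class, and no gene was 2-fold apart (background 5.33%). All comparisons of the triple mutant use its 1 library, and all comparisons with WT share the 1 WT library.

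**Figure D4:**
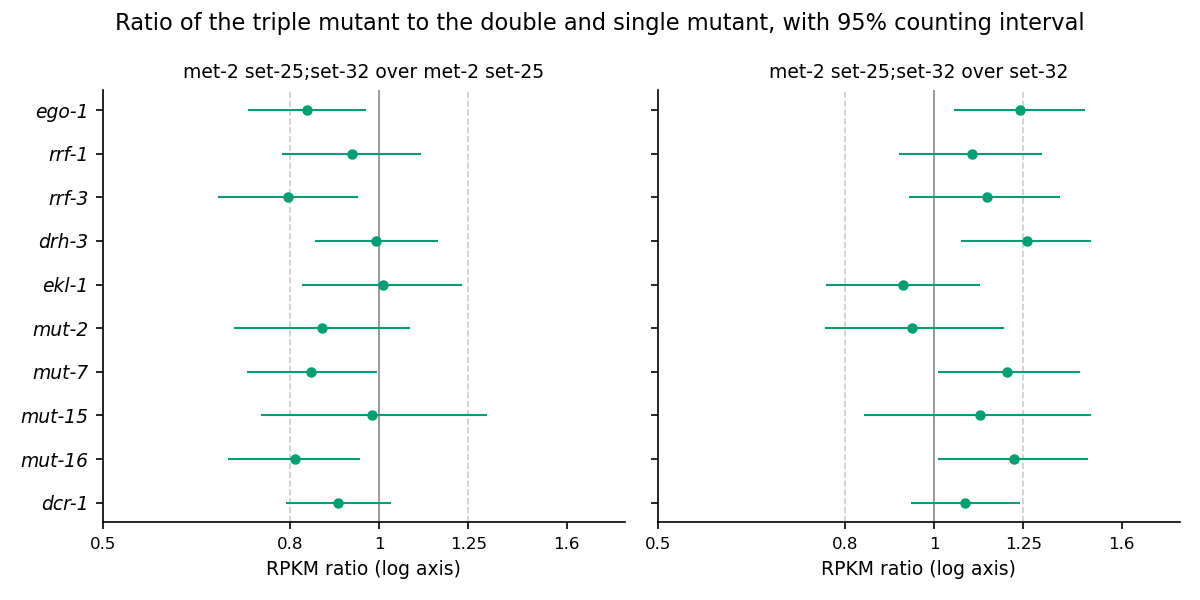
Ratio of the triple mutant to the double mutant (*met-2 set-25*, left) and to *set-32* (right) for the 10 genes (log axis), with 95% exact counting intervals. Lines are at 1 (solid) and 5/4-fold (dashed); 4 intervals lie below 1 on the left (*ego-1*, *rrf-3*, *mut-7* and *mut-16*) and 4 above 1 on the right (*ego-1*, *drh-3*, *mut-7* and *mut-16*).

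Levels of the genes relative to each other, which do not depend on the scaling of a library, are given for some pairs. The helicase gene *drh-3* was at 0.665 of *ekl-1* (0.551 to 0.809) in *set-32*, 0.924 (0.761 to 1.12) in the double mutant, 0.907 (0.773 to 1.07) in the triple mutant, 0.732 (0.604 to 0.889) in *hrde-1* and 0.765 (0.65 to 0.903) in WT. It was below *ekl-1* beyond counting error in *set-32*, *hrde-1* and WT, while both libraries without MET-2 and SET-25 had intervals that included 1. The intervals of *set-32*, the double mutant, the triple mutant, *hrde-1* and WT nevertheless all overlap. Overlap does not show that ratios are equal, and a change of this ratio between genotypes was not tested. The Mutator scaffold gene *mut-16* was at 0.551 of *mut-2* (0.444 to 0.69) in *set-32*, 0.761 (0.621 to 0.934) in the double mutant, 0.711 (0.589 to 0.857) in the triple mutant, 0.705 (0.572 to 0.867) in *hrde-1* and 0.638 (0.535 to 0.765) in WT. It was below *mut-2* in every library. The intervals of all 5 ratios overlap, and a change between genotypes was again not tested. Among the RdRPs, *ego-1* was above *rrf-3* beyond counting error in every library, by 1.42-fold in *set-32*, 1.47-fold in the double mutant, 1.54-fold in the triple mutant, 1.32-fold in *hrde-1* and 1.33-fold in WT.

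Other factors of the pathway were counted from 3 lists. Of 12 other Mutator and secondary siRNA factors, 11 reached 5 RPKM in *set-32* or WT, and of these 5 were at least 5/4-fold lower and 1 higher in *set-32* than in WT (median log2 ratio -0.25, background 21.6% lower and 21.8% higher). With *rrf-2*, which was under 5 RPKM in both libraries, 6 of 12 were lower (median -0.34). In the double mutant 0 of 12 were lower and 1 higher (median -0.06, background 12.4% lower and 20.9% higher), and in the triple mutant 4 of 12 were lower and 2 higher (median -0.09, background 18.7% lower and 20% higher). In *hrde-1* 0 of 11 were lower and 2 higher (median 0.11, background 20% lower and 18.3% higher), again without *rrf-2*, which was lower but under 5 RPKM in both libraries. The counts in the double mutant and *hrde-1* were thus at or below the share of all models. The factor *rde-11*, which binds targeted mRNAs, had 37.7 RPKM in *set-32*, 26.5 RPKM in the double mutant, 37.2 RPKM in the triple mutant, 40.4 RPKM in *hrde-1* and 28.2 RPKM in WT, and was 5/4-fold above WT in 3 mutants, though the intervals in *set-32* (0.947 to 1.87) and the triple mutant (0.958 to 1.82) included 1. The RdRP-related gene *rrf-2* had 1.61 RPKM in *set-32*, 6.6 RPKM in the double mutant, 6.95 RPKM in the triple mutant, 1.51 RPKM in *hrde-1* and 2.60 RPKM in WT. It was thus higher in both libraries without MET-2 and SET-25, at 2.54 times WT (1.65 to 4.1) in the double mutant and 2.67 times WT (1.78 to 4.22) in the triple mutant.

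Further Mutator factors were lower in 2 mutants each. The gene *rde-2*, whose product binds MUT-7, had 30.6 RPKM in *set-32*, 37.2 RPKM in the double mutant, 34.6 RPKM in the triple mutant, 54.02 RPKM in *hrde-1* and 44.6 RPKM in WT. The ratio to WT was 0.686 (0.541 to 0.868) in *set-32* and 0.776 (0.631 to 0.96) in the triple mutant. The helicase gene *mut-14* had 23.9 RPKM in *set-32*, 32.5 RPKM in the double mutant, 26.3 RPKM in the triple mutant, 33.1 RPKM in *hrde-1* and 36.2 RPKM in WT. Here the ratio to WT was 0.661 (0.499 to 0.871) in *set-32* and 0.725 (0.567 to 0.935) in the triple mutant. Both genes were lowest in the 2 libraries without SET-32, an order whose share over all models was not counted.

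Of 12 partners of Dicer and the ERI complex, 10 reached 5 RPKM in some library, and 9 of these did so in every comparison with WT, the exception being *alg-4*. In *set-32*, 3 of 9 were at least 5/4-fold lower than WT and 1 higher (median -0.22), in the double mutant 1 of 9 lower and 0 higher (median -0.09), in the triple mutant 1 of 10 lower and 1 higher (median -0.12), and in *hrde-1* 0 of 9 lower and 3 higher (median 0.16). Set against the same background shares, few of these counts stood above that of all models, the highest being 3 of 9 lower in *set-32* and 3 of 9 higher in *hrde-1*. The Tudor-domain gene *eri-5*, whose product ties RRF-3 to Dicer, had 21.7 RPKM in *set-32*, 15.7 RPKM in the double mutant, 17.5 RPKM in the triple mutant, 27.7 RPKM in *hrde-1* and 15.2 RPKM in WT, and was 1.82 times WT (1.28 to 2.57) in *hrde-1*. The double-stranded RNA-binding partner *rde-4* had 68.7 RPKM in *set-32*, 69.3 RPKM in the double mutant, 82.4 RPKM in the triple mutant, 78 RPKM in *hrde-1* and 94.8 RPKM in WT, and was highest in WT. The Argonaute gene *ergo-1*, which takes up RRF-3-dependent siRNAs, had 76.2 RPKM in *set-32*, 92.5 RPKM in the double mutant, 78.9 RPKM in the triple mutant, 112.4 RPKM in *hrde-1* and 100.3 RPKM in WT. Its ratio to WT was 0.76 (0.682 to 0.846) in *set-32* and 0.787 (0.713 to 0.869) in the triple mutant. These are again the 2 libraries without SET-32, and the share of all models with this order was not counted. The spermatogenesis Argonaute gene *alg-4* was low, at 3.71 RPKM in *set-32*, 3.96 RPKM in the double mutant, 5.11 RPKM in the triple mutant, 2.09 RPKM in *hrde-1* and 3.12 RPKM in WT.

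The branch that uses EGO-1 products was represented by 2 genes. The Argonaute gene *csr-1* had 110.0 RPKM in *set-32*, 131.3 RPKM in the double mutant, 124.3 RPKM in the triple mutant, 139.2 RPKM in *hrde-1* and 132.6 RPKM in WT. The gene *elli-1* had 67.4 RPKM in *set-32*, 93.7 RPKM in the double mutant, 63.4 RPKM in the triple mutant, 83.2 RPKM in *hrde-1* and 69.3 RPKM in WT. In the double mutant *elli-1* was at 1.35 times WT (1.05 to 1.74), the only ratio to WT of these 2 genes that was 5/4-fold apart.

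The genes whose profile of 4 log2 ratios to WT was nearest to a member were found for the 8 members at least 5/4-fold apart from WT in some mutant, among 6050 models whose mean over the libraries was 20 RPKM or more. Likeness is given as the root mean square difference over the 4 ratios, in log2 units. For *mut-16* the nearest were *mes-4* (0.021) and *larp-1* (0.027), for *dcr-1* *cyn-4* (0.016) and *mrpl-48* (0.017), and for *mut-2* *drap-1* (0.02) and *cyl-1* (0.03). For *mut-7* they were *prp-39* (0.024) and *ekl-7* (0.034), for *rrf-3* *hex-3* (0.013) and *mtm-3* (0.028), and for *ekl-1* *letm-1* (0.026) and *rtcb-1* (0.05). For *drh-3* they were *uso-1* (0.032) and *mage-1* (0.035), and for *mut-15* *rpn-6.1* (0.035) and *cct-3* (0.042). Among the members themselves *mut-7* was the nearest to *rrf-3*, at 0.037. Differences of this size are below the counting error of the members' own ratios. For *rrf-3* and *mut-7*, 3 of the 6050 models were nearer than the nearest member. For the other members many more models were, from 21 for *mut-15* to 719 for *drh-3*.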

How the data were processed

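The authors aligned single-end reads of poly(A)-selected RNA to the *C. elegans* genome release WS190 with Bowtie 0.12.7 (the version in the submitters' processing notes), kept perfect alignments, divided reads with several alignments evenly and deposited RPKM per gene model, with 2 decimals. The deposited table's columns carry library names, which were matched to genotypes through the study's library list. Models were matched by sequence name to WBcel235 (Ensembl), 20249 of 20911, and coordinates are of that build, not of the authors' build.

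Analyses used Python 3.11.15 with pandas 2.3.3, numpy 2.4.6, scipy 1.17.1 and matplotlib 3.10.9. For each comparison log2((RPKM + 1)/(RPKM + 1)) was taken over every model that reached 5 RPKM in the higher of both libraries, and models at least 5/4-fold or 2-fold apart on that scale were counted. Read numbers were estimated from the steps between low RPKM values and annotated coding lengths. Between 51.6% and 54% of low values came out whole within 0.1 reads, against 20% by chance, so read numbers are approximate. Intervals of ratios are exact Clopper-Pearson intervals (95%), and the scripts were tested on simulated data.

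All members are named. From each pathway list up to 4 genes were named, those 5/4-fold apart from WT in the same direction in the most mutants, with *csr-1* added after its values were seen. The 2 nearest profiles were named for members 5/4-fold apart in some mutant. The members and lists were chosen with earlier results of these data known. Names *drh-2*, *cde-1* and *col-19* matched no model, and *alg-3* stayed below 5 RPKM. Alternatives were other pseudocounts, minimums, scalings and a reference of the other 4 libraries.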

Additional observations from a re-analysis of the deposited data

How the results depend on the processing

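No paired analysis was possible because each genotype had 1 library, and for the same reason no replicate could be left out. Of the medians of the 10 genes, 38 of 40 alternative values lay between the 2nd and 9th gene of the original setting. The exceptions came with rescaling to the median of the intrinsic class: -0.15 in *set-32* over WT and 0.01 in the triple mutant over WT. Under that rescaling, genes at least 5/4-fold lower numbered 1 in *set-32* over WT and 0 in the triple mutant over WT, and genes as far higher numbered 0 in *hrde-1* over WT and 0 in the triple mutant over *set-32*. Rescaling to all models also gave 0 higher in the triple mutant over *set-32*. With a pseudocount of 5 RPKM, 0 were lower in the double mutant over WT, 0 higher in *hrde-1* over WT and 0 higher in the triple mutant over *set-32*, and with 0.1 RPKM 1 was lower in the triple mutant over the double mutant. Against the median of the other 4 libraries, 0 were lower in the double and 0 in the triple mutant, and 3 were higher in *hrde-1*. The other 108 counts were within 1.5 times, and 393 of 399 values of single genes were within their counting intervals. The sign changed in 18 of the 399, 10 of them under the intrinsic rescaling, 4 under the rescaling to all models and 4 against the other 4 libraries (*dcr-1* in *hrde-1* over WT, for one, from -0.11 to 0.22), and 0 of the 18 were ratios that had been 5/4-fold apart. The cause of these shifts was not tested. With 85 to 590 reads per gene in a library, the counting intervals are wide beside the differences given, and the spread between replicate samples is unknown.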
